A study of Mus musculus with 12 samples.

Results

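Induced pluripotent stem cells made with 6 factors (iPS6F) were compared with mouse embryonic fibroblasts (MEF), the kind of cell from which such lines are made. The comparison used the 3 arrays labelled iPS6F and the 3 labelled MEF, 6 of the 12 arrays of the study, and all probes on them. The MEF came from male OG2 mice, a line that carries green fluorescent protein under Pou5f1 regulatory sequence. The iPS6F cells, labelled male and pluripotent, had received Oct4 (Pou5f1), Sox2, Klf4 and c-Myc (Myc) together with Brg1 (Smarca4) and Baf155 (Smarcc1). The other arrays held iPS cells made with the first 4 of these factors (iPS4F, male) and OG2 embryonic stem cells of mixed sex (ESC), again 3 of each. The iPS arrays are not stated to be separate clones, and no group is stated to hold separate cultures or animals, so each p-value measures the spread between arrays, which may be technical. The labels used here state neither the route of delivery of the factors nor the time in culture.

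Reprogramming replaces the transcription programme of a differentiated cell with that of the early embryo. Oct4 and Sox2 sit at the centre of a network of regulators that sustain one another's transcription, while genes of the starting cell, such as the collagens and contractile proteins of a fibroblast, lose theirs. Fibroblasts also pass through a mesenchymal-to-epithelial transition on the way, in which cells gain E-cadherin junctions. Brg1 is an ATPase and Baf155 a scaffold subunit of the BAF complex, which slides and evicts nucleosomes.

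Each probe has an intensity and a detection p-value, the chance of so bright a signal from negative control beads. A probe with a detection p under 0.05 is called detected here. Mean raw intensity was 172 to 186 on the MEF arrays and 177 to 209 on the iPS6F arrays, with 15843 to 16589 and 15659 to 17138 of 45281 probes detected. The iPS4F arrays were brighter, at 213 to 237 with 17239 to 17741 probes detected. The number of arrays limits the precision. Levels are given as log2 intensity after background correction and quantile normalization, on which an undetected probe reads about 4 and the brightest about 14. Across genes, arrays of the same group correlated at 0.991 to 0.995, and MEF with iPS6F arrays at 0.679 to 0.687.

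The labels were first set against markers of each cell type. All 7 pluripotency markers were detected on every iPS6F array, and their summed linear level was 22400 to 23000 against 20.9 to 28.9 in MEF. All 10 fibroblast markers were detected on every MEF array, with a sum of 20600 to 23400 against 40 to 55 in iPS6F. In iPS6F 6 of those 10 were detected on no array, while Thy1 and Twist1 were still detected on all 3. Of the 5 macrophage markers with a probe, 4 were detected on every MEF array, and the sum fell from 807 to 1190 in MEF to 12.8 to 23.6 in iPS6F. The endothelial sum was higher in iPS6F, at 232 to 296 against 18.6 to 24.8, through Pecam1, which pluripotent cells also carry, and the keratinocyte sum was 7.05 to 10.1 in MEF and 6.89 to 12.3 in iPS6F. In bulk RNA, fewer cells of a type and less RNA per cell cannot be told apart, and this holds for every list below.

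The iPS6F cells differed from MEF in most of what they transcribed. Of 10096 genes tested, 7933 differed (78.6%), and 3960 were higher in iPS6F (39.2%) and 3973 lower (39.4%) at an adjusted p under 0.05 (limma, Benjamini-Hochberg). With a difference of at least 2-fold as well, 1961 were higher (19.4%) and 2170 lower (21.5%). These 2 counts ranged from 1050 to 2995 and from 1223 to 3155 under other background settings and in the authors' log2 table. The median difference over all genes was 0.03 and the median size 0.79, on the log2 scale. At 5 log2 or more 112 were lower and 36 higher, and at 8 or more 9 were lower and 4 higher.

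**Figure D1:**
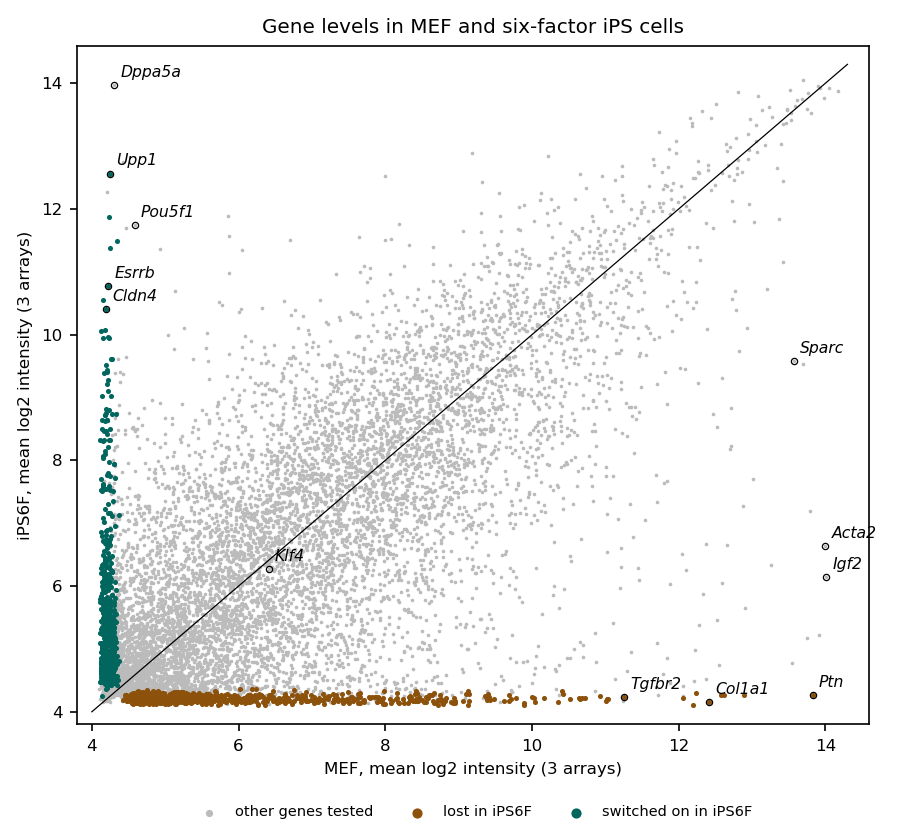
Mean log2 intensity in MEF (x axis) and iPS6F (y axis), one point for each of the 10096 genes, with the line of equality. The 726 genes lost in iPS6F lie along the bottom edge with MEF levels from 4.43 to 13.83, and the 630 switched on lie along the left edge up to 12.56.

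A gene was called lost where a probe of it was detected on all 3 MEF arrays and none on any iPS6F array, and switched on in the mirror case. By this rule 726 genes were lost, 7.19% of those tested and 8.6% of the 8437 detected on all MEF arrays. The 630 switched-on genes were 6.24% of those tested and 7.72% of the 8163 detected on all iPS6F arrays. A further 6936 genes were detected on all arrays of both groups. Most lost genes had been dim in MEF, with a median level of 5.41 and an upper quartile of 6.72. The rule sets the direction of both groups of genes, so their differences from MEF describe size only, with 415 lost genes at least 2-fold lower and 299 switched-on genes at least 2-fold higher. A probe was tested only if detected on all 3 arrays of some group. This favours a rise for list members undetected in MEF, and a fall in the mirror case, so list counts rest in part on it. Over all genes tested 39.2% rose, 39.4% fell, 7.19% were lost and 6.24% switched on, the shares to set beside each list count. A large fall did not always end in loss. Among the 112 genes lower by at least 5 log2, 40 were lost and 51 were still detected on all 3 iPS6F arrays.

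The promoters of some of these genes are shown as the DNA around a transcript start, although the array reads RNA level and not promoter activity. They are the first 2 lost and the first 2 switched-on genes of the ranking below that have an entry, and Pou5f1, the factor whose own gene is reactivated in reprogramming. Each runs from 250 bases before to 50 after a RefSeq start (build GRCm38.p6, 300 bases, 5′ to 3′ on the gene's strand, the first start listed where there are several), with CG dinucleotides, the sites of DNA methylation, in capitals.
Ptn, chr6:36810130-36810429, minus strand: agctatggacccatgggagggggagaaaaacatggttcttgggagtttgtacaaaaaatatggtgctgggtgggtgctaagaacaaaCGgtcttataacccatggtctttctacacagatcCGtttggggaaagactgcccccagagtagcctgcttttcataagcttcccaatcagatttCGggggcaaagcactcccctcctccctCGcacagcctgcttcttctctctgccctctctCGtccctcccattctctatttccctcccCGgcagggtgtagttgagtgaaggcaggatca
Thbs2, chr17:14694213-14694512, minus strand: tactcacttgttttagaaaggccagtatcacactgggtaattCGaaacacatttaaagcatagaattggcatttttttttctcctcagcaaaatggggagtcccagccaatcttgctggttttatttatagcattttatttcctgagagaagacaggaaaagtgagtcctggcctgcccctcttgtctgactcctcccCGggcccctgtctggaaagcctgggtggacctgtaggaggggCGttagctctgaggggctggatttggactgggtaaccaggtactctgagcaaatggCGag
Upp1, chr11:9117758-9118057, plus strand: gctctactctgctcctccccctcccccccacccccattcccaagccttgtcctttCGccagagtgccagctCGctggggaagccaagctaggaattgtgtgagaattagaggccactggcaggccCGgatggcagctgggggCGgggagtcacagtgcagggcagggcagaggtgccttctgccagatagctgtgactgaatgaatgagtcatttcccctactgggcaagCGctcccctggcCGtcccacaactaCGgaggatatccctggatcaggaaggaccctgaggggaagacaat
Gldc, chr19:30175392-30175691, minus strand: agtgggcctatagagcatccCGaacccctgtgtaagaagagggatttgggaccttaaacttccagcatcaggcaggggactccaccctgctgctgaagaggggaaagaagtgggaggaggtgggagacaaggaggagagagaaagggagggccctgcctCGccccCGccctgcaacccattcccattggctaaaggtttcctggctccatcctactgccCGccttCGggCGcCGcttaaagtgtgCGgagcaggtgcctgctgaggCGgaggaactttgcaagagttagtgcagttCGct
Pou5f1, chr17:35505782-35506081, plus strand: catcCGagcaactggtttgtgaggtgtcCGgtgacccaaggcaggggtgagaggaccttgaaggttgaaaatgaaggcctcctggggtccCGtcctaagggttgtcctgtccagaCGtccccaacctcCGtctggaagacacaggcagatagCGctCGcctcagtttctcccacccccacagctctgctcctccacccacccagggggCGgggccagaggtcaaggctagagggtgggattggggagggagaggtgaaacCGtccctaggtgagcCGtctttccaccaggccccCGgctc
These promoters held 6, 4, 7, 10 and 11 CG dinucleotides, in the order shown, where the median over the 8145 tested genes with an entry was 21. The 5 genes were picked, so their counts say nothing about lost or switched-on genes as sets. Only the Thbs2 window of the 5 held TATAAA, read on either strand, which 7.5% of the 8145 held. A comparison of CG content between lost, switched-on and other genes is void here, since 530 of 726 lost and 476 of 630 switched-on genes had an entry, under 80%.

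The 6 factors came next, because they were the ones delivered. A probe reads delivered copies only if its target lies in them, which was not tested. Pou5f1 read 4.55, 4.68 and 4.53 on the MEF arrays and 11.78, 11.63 and 11.82 on the iPS6F arrays, a difference of 7.16 ± 0.11 (log2 ± SE, adjusted p = 3.96e-18). Sox2 rose by 4.13 ± 0.16 (adjusted p = 3.31e-13), although its other probe differed by only 0.30. Neither gene overlapped between the groups. Every iPS6F array was above every MEF array in 4037 of the 10096 genes tested (40%).

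Klf4, a zinc finger regulator, read 6.58, 6.45 and 6.21 in MEF and 6.28, 6.06 and 6.47 in iPS6F, so the groups overlapped and the difference of -0.14 did not pass the test (adjusted p = 0.406). Myc was near the floor in both, at 4.40 to 4.51 in MEF, where it was detected on all arrays, and 4.17 to 4.34 in iPS6F, where it was detected on none (-0.19, adjusted p = 0.0838). Smarcc1 rose by 1.12 ± 0.17, from 7.47, 7.25 and 7.28 to 8.54, 8.28 and 8.52 (adjusted p = 1.32e-05). Smarca4 differed by 0.27 ± 0.11 with overlapping arrays, 5.64, 5.74 and 5.96 against 5.95, 6.20 and 6.01 (adjusted p = 0.0371), and its call ended under 6 of 21 alternatives, with adjusted p from 0.0124 to 0.536. None of these 6 genes passed the test of iPS6F against iPS4F. For Smarca4 and Smarcc1, which iPS4F had not received, the differences between the lines were 0.20 (adjusted p = 0.513) and 0.25 (adjusted p = 0.593).

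Regulators of pluripotency rose. Of 20 tested transcription factors of pluripotent cells, 19 rose, against 39.2% of all genes, and 10 of them were switched on, which fixes the direction of those 10. The median difference of the 20 was 4.10, or 4.02 with genes undetected in MEF at their bound. Klf4 was the one that did not pass. Dppa4, a chromatin-associated protein of pluripotent cells, read 4.19, 4.37 and 4.12 in MEF and 11.98, 11.74 and 11.91 in iPS6F, at least 177-fold higher. "At least" marks a gene undetected on every array of one group, where the lowest signal of a detected probe stands in for its level. Esrrb, an orphan nuclear receptor of naive cells, went from 4.18, 4.28 and 4.21 to 10.81, 10.80 and 10.71 and was at least 82.1-fold higher. Sall4, a zinc finger partner of Oct4, was at least 50.3-fold higher, Nanog at least 31.7-fold and the naive factor Tfcp2l1 at least 34.4-fold. No array of one group reached the other for any of these genes, a separation with iPS6F higher that 40% of all genes tested had. Klf2, Tbx3 and Gbx2, which also act in the naive network, rose less, by 0.58, 1.09 and 1.16.

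All 21 tested surface and effector genes of pluripotent cells rose, against 39.2% of all genes, with a median of 3.55. Of these 9 were switched on, against 6.24% of all genes. Dppa5a, an RNA-binding protein of the early embryo, had the largest rise of the genes named, 9.67 ± 0.11 (adjusted p = 3.05e-19). It read 4.31, 4.43 and 4.17 in MEF, detected on 1 array, and 13.97, 13.96 and 13.96 in iPS6F. Upp1, uridine phosphorylase, read 4.20, 4.27 and 4.27 in MEF, detected on none, and 12.61, 12.54 and 12.53 in iPS6F, which made it at least 284-fold higher. Ooep, a subunit of the maternal complex of the oocyte, rose by 8.07, and Fbxo15, an F-box gene used as a reporter of reprogramming, by 6.70. The signalling ligands Nodal and Gdf3 were at least 17.1-fold and 18.7-fold higher, and Fgf4 rose by 3.21.

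**Figure D2:**
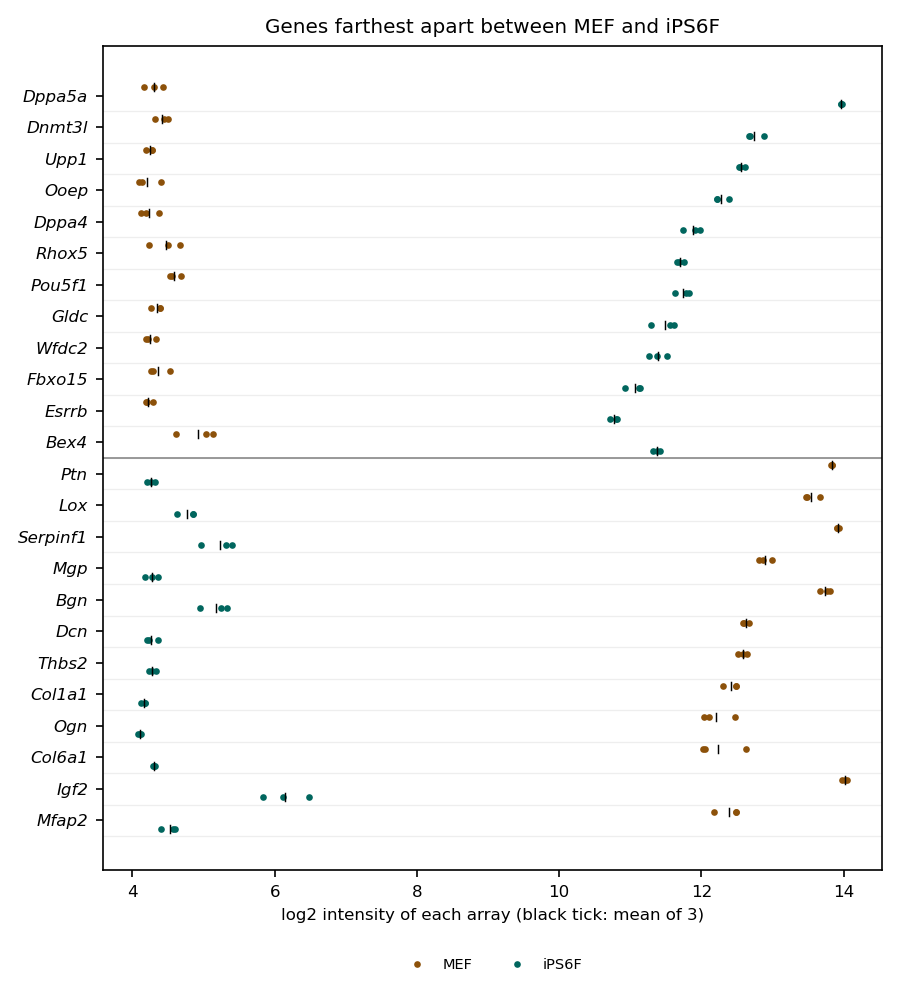
Log2 intensity on each of the 3 MEF and 3 iPS6F arrays (points) with their mean (tick), for the 12 genes that rose most and the 12 that fell most. The genes were chosen to have no overlap between the groups, so their separation follows from the rule. Igf2 is the lower gene with the most signal left, at 5.83 to 6.48.

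Several of the genes that rose most were metabolic, epithelial or of the germ line. Gldc, the decarboxylase of the glycine cleavage system, read 4.38, 4.39 and 4.26 in MEF and 11.62, 11.29 and 11.56 in iPS6F, at least 135-fold higher. Wfdc2, a secreted protein of epithelia, read 4.22, 4.33 and 4.20 against 11.26, 11.51 and 11.38 and was at least 125-fold higher. Both were undetected on every MEF array and detected on every iPS6F array. Rhox5, an X-linked homeobox gene of germ cells and the embryo, rose by 7.23, and X-linked Bex4 by 6.44.

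Of 16 tested germline genes 15 rose, with a median of 2.83. The 12 that were switched on entered the test only through groups where they were detected, and 10 more were below the detection filter. Tex19.1, which holds transposons in check in germ cells, was at least 25.9-fold higher. The maternal factor Dppa3 was at least 21.3-fold higher, and Tdrd12, a piRNA pathway gene, at least 18.7-fold. Kit, the stem cell factor receptor, rose by 4.15. Piwil2, of the piRNA pathway, was at least 7.47-fold higher and Dazl, an RNA-binding protein of germ cells, at least 5.66-fold. Ddx4 did not pass, at 0.19.

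Epithelial genes rose as well. Of 18 tested junction genes 14 rose, 1 fell and 9 were switched on, with a median of 1.35, or 1.10 with undetected genes at their bound. Cdh1, E-cadherin, went from 4.45, 4.57 and 4.85 to 8.34, 8.33 and 8.47, a rise of 3.76 ± 0.11 (adjusted p = 1.00e-14). The tight junction proteins Cldn4 and Cldn6 were at least 63.6-fold and 36.6-fold higher, and Spint1, an inhibitor of membrane serine proteases, at least 46.5-fold. P-cadherin, Cdh3, was the exception and fell by 1.99, from 7.89, 8.28 and 8.40 to 6.22, 6.43 and 5.95.

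Of 14 tested epithelial regulators and keratins 13 rose, with a median of 2.22, and 7 were switched on. Esrp1, which sets epithelial splicing, read 4.17, 4.20 and 4.25 in MEF and 8.42, 8.41 and 8.42 in iPS6F and was at least 16-fold higher. Rab25, a trafficking GTPase, and Elf3, an Ets factor of epithelia, rose by 3.41 and 3.31. The simple-epithelium keratins Krt8 and Krt18 were at least 4.78-fold and 4.90-fold higher. Krt5 and Trp63, markers of keratinocytes, were detected on no array of either group.

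Fibroblast transcription factors went the other way. Of 26 tested, 25 fell, against 39.4% of all genes, and 14 were lost, with a median of -2.23. Nfix and Nfib, nuclear factor I genes, fell by 6.54 and 4.85. Twist2, a mesenchymal helix-loop-helix factor, read 8.84, 8.73 and 8.72 in MEF and 4.18, 4.19 and 4.13 in iPS6F and was lost, at least 20.7-fold lower. Prrx1, a homeobox factor of limb and connective tissue, was at least 24.8-fold lower by its brightest probe, though another of its probes was detected on an iPS6F array. Of the repressors of E-cadherin, Snai2 was at least 8.17-fold and Zeb2 at least 8.50-fold lower, both lost, and Zeb1 fell by 3.43 while still detected. Cebpd, a stress-responsive factor, rose by 1.68, from 6.94, 6.85 and 6.89 to 8.66, 8.58 and 8.49.

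Hox genes, which record the position of a cell along the body axis, fell in 17 of the 18 tested, with a median of -1.77, or -1.55 with undetected genes at their bound. Another 20 were below the detection filter. Hoxc6 read 10.21, 10.04 and 10.24 in MEF and 4.11, 4.16 and 4.39 in iPS6F, at least 54.5-fold lower. It was 1 of 6 lost Hox genes, with Hoxb5, Hoxd10, Hoxd4, Hoxd3 and Hoxb9. Hoxb7, Hoxc9 and Hoxd8 fell by 3.67, 3.62 and 3.36, each with a detection call left on 1 iPS6F array.

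**Figure D3:**
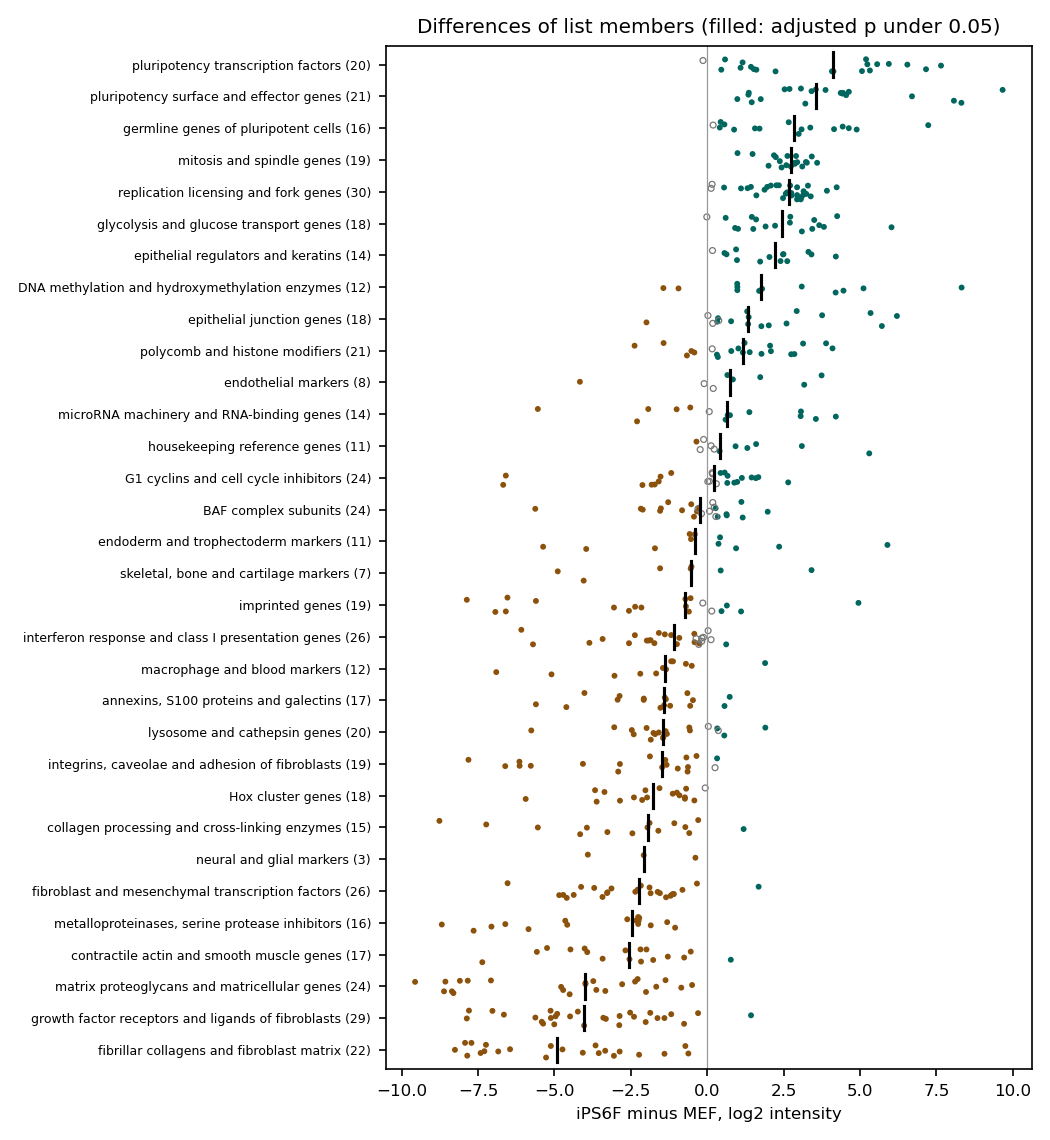
Difference iPS6F minus MEF (log2) of each tested member of 32 gene lists, with the number tested in brackets and a black bar at the list's median; filled points passed the test and open ones did not. Medians run from -4.93 for fibrillar collagens to 4.10 for pluripotency transcription factors.

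Matrix genes fell with the rest of the fibroblast programme. All 22 tested collagens and matrix genes fell, with a median of -4.93, and 11 were lost. Col1a1, the main chain of type I collagen, read 12.48, 12.30 and 12.48 in MEF and 4.18, 4.18 and 4.12 in iPS6F, at least 260-fold lower. No probe of it was detected on any iPS6F array. Col6a1, of microfibrillar collagen, was at least 228-fold lower and the fibril-associated Col16a1 at least 98.3-fold. Col3a1 fell from 9.31, 8.80 and 8.57 to 4.11, 4.22 and 4.14. Mfap2, of elastic microfibrils, fell by 7.85 but was still detected on all 3 iPS6F arrays. Fn1, fibronectin, fell by 2.23, to a level of 8.81, although another of its probes differed by 0.16.

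All 24 tested proteoglycan and matricellular genes fell too, with a median of -3.99 and 11 lost. Ptn, pleiotrophin, a heparin-binding growth factor, had the largest fall of the genes named, 9.56 ± 0.10 on the log2 scale (adjusted p = 2.14e-19). It read 13.82, 13.83 and 13.84 in MEF and 4.27, 4.21 and 4.32 in iPS6F, at least 691-fold lower. Mgp, an inhibitor of calcification, was at least 359-fold lower, decorin (Dcn), a small collagen-binding proteoglycan, at least 300-fold, and the adhesion modulator Thbs2 at least 291-fold. Their MEF arrays ran from 12.81 to 12.99, 12.59 to 12.67 and 12.52 to 12.64, and no iPS6F array exceeded 4.36. The related leucine-rich proteoglycans Ogn and Lum were at least 224-fold and 203-fold lower. Biglycan (Bgn), of the same family, fell by 8.57 and kept a signal of 5.33, 5.25 and 4.94. Sparc, a collagen-binding glycoprotein, fell by 3.99, from 13.65, 13.49 and 13.56 to 9.64, 9.58 and 9.52, where it was far above the floor.

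Of 15 tested enzymes that process collagen 14 fell, 3 of them lost, and 1 rose, with a median of -1.96. Lox, lysyl oxidase, which cross-links collagen and elastin, fell by 8.77 ± 0.12, from 13.67, 13.47 and 13.48 to 4.84, 4.62 and 4.85. It was still detected on every iPS6F array. Loxl1 fell by 7.23, Bmp1, which trims procollagen, by 5.54, and the collagen chaperone Serpinh1 by 4.16, from 13.62, 13.78 and 13.67 to 9.43, 9.62 and 9.54. P4ha1, a prolyl hydroxylase subunit, rose by 1.19, although its other probe differed by -0.07.

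All 16 tested metalloproteinases and protease inhibitors fell, 2 of them lost, with a median of -2.47. Serpinf1, an antiangiogenic serpin, fell by 8.69, from 13.91, 13.94 and 13.90 to 5.32, 4.97 and 5.40. Timp2 and Timp3, inhibitors of metalloproteinases, fell by 7.65 and 6.61, the membrane protease Mmp14 by 7.06 and the gelatinase Mmp2 by 5.85. All 4 were still detected on 2 or 3 iPS6F arrays.

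Of 17 tested contractile and cytoskeletal genes 16 fell, with a median of -2.55. Acta2, smooth muscle actin, fell by 7.36 ± 0.13, from 13.95, 13.97 and 14.07 to 6.75, 6.31 and 6.85, and was detected on every iPS6F array. The light chain Myl9 fell by 5.58 and tropomyosin Tpm1 by 4.48. Csrp1, a LIM protein, was lost and at least 32.8-fold lower, and Actg2, the enteric smooth muscle actin, was at least 99.8-fold lower. Vimentin fell by 3.93, from 11.99, 11.56 and 11.53 to 7.88, 7.78 and 7.63. Tagln2, a transgelin, rose by 0.77.

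Adhesion and caveolar genes fell in 17 of 19, with 1 rise, 6 losses and a median of -1.48. The collagen receptor subunit Itga11 was at least 203-fold lower by its brightest probe, and Cav1, the coat protein of caveolae, was lost and at least 65.3-fold lower. Thy1, a surface marker of fibroblasts, fell by 6.61, from 11.71, 11.53 and 11.88 to 5.22, 5.13 and 4.93. Among growth factors and receptors 28 of 29 fell and 11 were lost, with a median of -4.03. Tgfbr2, the type II receptor for transforming growth factor beta, read 11.28, 11.14 and 11.36 in MEF and 4.36, 4.16 and 4.17 in iPS6F, at least 117-fold lower and lost. Pdgfra and Egfr fell by 5.37 and 5.01, the growth factor Igf2 by 7.87 and the binding proteins Igfbp5 and Igfbp7 by 7.80 and 6.66. Igfbp2 rose by 1.43. Among lost genes outside these lists, Capn6, a calpain without protease activity, was at least 99.1-fold lower.

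Of 24 tested BAF subunits 7 rose and 11 fell, with a median of -0.23, where 39.2% of all genes rose and 39.4% fell, so these counts show nothing about the complex as a whole. Smarca2 (Brm), the alternative ATPase to Brg1, fell by 5.63 ± 0.16, from 10.86, 10.67 and 10.54 to 5.33, 5.04 and 4.83 (adjusted p = 3.10e-15). Arid1b, Smarce1 and Smarcc2, the paralog of Baf155, fell by 2.17, 2.11 and 1.54, and Actl6a, the actin-like subunit of proliferating cells, rose by 1.98. No BAF subunit passed the test between iPS6F and iPS4F.

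Of 12 tested DNA methylation enzymes and readers 10 rose and 2 fell, with a median of 1.75. Dnmt3l, the cofactor of de novo methyltransferases, went from 4.32, 4.44 and 4.51 to 12.88, 12.68 and 12.67, a rise of 8.32. The methyltransferase Dnmt3b rose by 5.11, and its other probe by 1.15. Tet1, which oxidises methylcytosine, rose by 4.46, and the methyl-binding protein Mbd2 was at least 15-fold higher. Among 21 polycomb and histone modifiers 15 rose and 5 fell. Ezh2, the methyltransferase of polycomb repressive complex 2, rose by 3.89, its partners Suz12, Mtf2 and Eed by 2.75, 3.13 and 1.77, and Cbx7 was at least 15.1-fold higher. Cbx6 and Ring1 fell by 2.38 and 1.43.

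Genes of the cell cycle rose together. Of 30 tested replication genes 28 rose, with a median of 2.66, and all 19 tested mitotic genes did, with a median of 2.74. Mcm10 and Cdt1, which load and start the replicative helicase, rose by 4.23 and 3.91, and the helicase subunits Mcm5 and Mcm2 by 3.39 and 3.29. Top2a, Plk1, Cdc20 and Aurkb, which act in chromosome separation, rose by 3.59, 3.42, 3.26 and 3.23. Among 24 cyclins of the first gap phase and inhibitors 11 rose and 8 fell, counts near the 39.2% and 39.4% of all genes. Cyclin D2 (Ccnd2) read 11.37, 10.62 and 10.81 in MEF and 4.18, 4.20 and 4.38 in iPS6F, lost and at least 92.8-fold lower, whereas cyclin E1 (Ccne1) rose by 2.65. The kinase inhibitors Cdkn1c, Cdkn2a, Cdkn1a and Cdkn2b fell, with differences of -6.59, -1.82, -1.72 and -1.59.

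Glycolysis genes rose in 17 of 18, with a median of 2.46. The glucose transporter Slc2a3 went from 6.08, 5.92 and 5.57 to 11.97, 11.89 and 11.79, a rise of 6.03. The enzymes Aldoc and Pfkp rose by 4.25 and 3.82, and Pdk1, which restrains pyruvate dehydrogenase, by 3.66. Of 14 microRNA and RNA-binding genes 8 rose and 5 fell, the latter near the 39.4% of all genes. Lin28a, which blocks let-7 maturation, and Trim71 were at least 10.2-fold and 7.69-fold higher, and the splicing regulator Mbnl1 fell by 5.55, from 10.95, 10.48 and 10.55 to 5.09, 5.14 and 5.11. Reference genes also moved, with 6 of 11 higher, against 39.2% of all genes. The transferrin receptor Tfrc rose by 5.30 and Gapdh by 1.60, while Rplp0 and Ppia differed by -0.23 and 0.12 and did not pass.

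Imprinted genes, transcribed from 1 parental copy, fell in 13 of 19, with 4 rises and a median of -0.72. Igf2, Dlk1, Cdkn1c and Grb10 fell by 7.87, 6.94, 6.59 and 6.54 from MEF levels of 12.47 or more, and all 4 stayed detected on every iPS6F array. Dlk1, a Notch-like growth regulator, read 6.47, 6.41 and 6.11 in iPS6F. Phlda2, a growth inhibitor of the placenta, rose by 4.95, from 4.40, 4.50 and 4.38 to 9.27, 9.43 and 9.43. Lysosomal genes fell in 15 of 20, with 3 rises, and annexins, S100 proteins and galectins in 15 of 17. Cathepsin K (Ctsk), a collagen-degrading protease, was lost and at least 45.2-fold lower, and galectin-1 (Lgals1) fell by 5.61.

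Interferon response and antigen presentation genes fell in 18 of 26, with 1 rise (Stat2, 0.62) and a median of -1.09. Beta-2 microglobulin (B2m), the light chain of class I molecules, went from 12.50, 12.28 and 12.32 to 6.92, 6.50 and 6.57, a fall of 5.70. Isg15, a ubiquitin-like protein, was lost and at least 12.8-fold lower. Macrophage genes were detected in MEF. Of 12 tested 11 fell and 8 were lost, among them the complement subunits C1qb, at least 6.78-fold lower, and C1qc, at least 4.11-fold. Lyz2, lysozyme of macrophages, read 10.06, 9.44 and 9.32 in MEF and 5.03, 4.33 and 4.16 in iPS6F. The near-identical Lyz1, whose probe may share its signal, fell by 6.91 and was detected on all iPS6F arrays. Laptm5, a lysosomal protein of blood cells, rose by 1.89, from 8.76, 9.02 and 9.08 to 10.98, 10.75 and 10.81. The part of macrophages in the lysosomal and interferon falls was not tested.

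Of 8 tested endothelial markers 5 rose and 1 fell, with Pecam1, an adhesion molecule shared with pluripotent cells, at least 11.8-fold higher and Flt1, a VEGF receptor, lower by 4.17. Of 11 tested endoderm and trophectoderm markers 5 rose and 6 fell, and of 7 skeletal, bone and cartilage markers 2 rose and 5 fell. Since 39.2% of all genes rose and 39.4% fell, counts on lists this short show nothing about these cell types as a whole. Tfap2c, a factor of trophectoderm and germ cells, was at least 50.6-fold higher, while the endoderm markers Dab2 and Gata6 fell by 3.96 and 1.71. Sox9, of cartilage, was lost and at least 25.4-fold lower. Of the neural markers only 3 of 15 could be tested, and Sox10, of glia, was at least 3.81-fold lower.

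The change from MEF in iPS6F was tested against that in iPS4F by the difference between the lines, which leaves the shared MEF arrays out of the contrast. Over all genes 117 differed (1.16%), 40 higher (0.396%) and 77 lower (0.763%) in iPS6F, and this count fell to 44 and 48 without iPS4F array 2 or 1, rose to 193 without iPS4F array 3, and fell to 58, 72 and 70 without iPS6F array 3, 2 or 1. A set of 97 genes was chosen without the iPS arrays, as lower by at least 5 log2 in ESC than in MEF. Of these 8 were lower in iPS6F than in iPS4F (8.25%) and 2 higher (2.06%). The shares depended on that limit. Of the 403 genes at least 3 log2 lower in ESC, 11 were lower (2.73%) and 5 higher (1.24%), and of the 1900 at least 1 log2 lower, 21 (1.11%) and 7 (0.368%), near the shares of all genes. Acta2 read 6.75, 6.31 and 6.85 in iPS6F against 7.97, 8.10 and 7.98 in iPS4F, lower by 1.38 ± 0.13 (adjusted p = 1.14e-05), and the call held under all 20 alternatives run. Igf2 read 6.12, 6.48 and 5.83 against 7.36, 7.34 and 7.12, a difference of -1.13 ± 0.16 (adjusted p = 0.00119). In both genes no iPS6F array reached an iPS4F array.

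The chemokine Cxcl12 and Myl9 were lower by 0.89 and 0.88, and Bgn, Grb10, Lox and Serpinf1 by 0.74, 0.64, 0.59 and 0.56, but these 4 calls ended under 12, 14, 5 and 13 of 20 alternatives. The matrix gene Sparc and the membrane protein Emp1 were higher in iPS6F than in iPS4F, by 0.51 and 0.71, and their calls ended under 9 and 1 of the 20. Sparc, Igf2, Lox, Cxcl12 and Bgn remained above the ESC level in iPS6F, by 1.21, 1.14, 0.65, 0.61 and 0.60. Serpinf1 and Acta2 were below it, by 1.80 and 0.54, and Myl9, Grb10 and Emp1 did not pass the test against ESC. Cxcl12, Sparc and Emp1 were named after their values were seen. The part of the brighter iPS4F arrays in these differences was not tested.

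**Figure D4:**
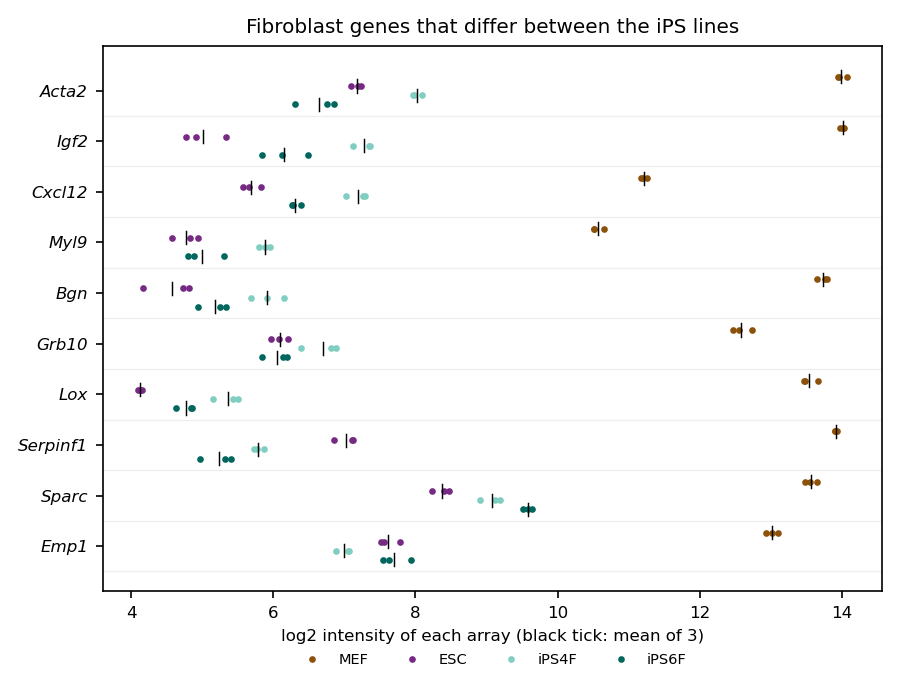
Log2 intensity on each array (points) with the group mean (tick) in MEF, ESC, iPS4F and iPS6F, for the 10 of 97 strong MEF genes that differed between the iPS lines. The first 8 genes are lower in iPS6F than in iPS4F and the last 2, Sparc and Emp1, higher, while MEF stands far to the right in all.

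Of the 726 lost genes 459 were also detected on no iPS4F array, 250 on some and 17 on all 3, and 464 were detected on no ESC array. Because lost genes were chosen as undetected in iPS6F, the direction of their differences from iPS4F and ESC was fixed by that choice, and no count of them is given. Of the 630 switched-on genes 573 were detected on all iPS4F arrays and 7 on none. Among all switched-on genes 9 were higher and 6 lower than in iPS4F, where 0.396% and 0.763% of all genes were. The set was chosen for detection in iPS6F, which favours higher values there, so these counts do not compare the lines. Maats1 and Khdc3, the latter of the maternal complex of the oocyte, were higher by 1.48 and 0.87, and the homeobox gene Rhox9 was lower by 0.87. These 3 were chosen after their values were seen, and their calls ended under 0, 2 and 3 of 20 alternatives.

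Against ESC 4625 of the 10096 genes differed (45.8%), 1799 higher (17.8%) and 2826 lower (28%) in iPS6F, and median scaling brought the count to 2101. MEF genes that persisted were few by detection. On all MEF and all iPS6F arrays but on no ESC array 33 genes were detected, and 18 of them were lower than in MEF past the threshold. Of the 33 genes 27 were also detected on all iPS4F arrays, so most were not particular to iPS6F. The differences of the 33 from ESC follow from this choice and are given as sizes only. Eif2s3y, a Y-linked translation factor gene, read 5.69, 5.74 and 5.87 in MEF, 7.58, 7.19 and 7.62 in iPS6F and 4.18 on average in ESC, whose label gives both sexes. Lyz1 read 5.93, 5.37 and 4.82 in iPS6F and 4.16 on average in ESC. Qpct, Me1, Ube2l6 and Tapbp kept levels that did not pass the test against MEF (differences of -0.24, 0.09, 0.11 and 0.12) and exceeded ESC by 1.14, 1.09, 0.92 and 0.71. For Tapbp another probe was lower in iPS6F than in MEF by 1.58.

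In the reverse case 27 genes were detected on all ESC arrays and on no MEF or iPS6F array, which again sets their direction against ESC. Soga3, Tafa4 and Robo4 stood below ESC by 1.41, 1.33 and 1.13, and the neuronal filament gene Ina, Prtg and metallothionein Mt3 by 1.10, 0.96 and 0.89. Of the 27 genes 10 were detected on no iPS4F array either.

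Some genes moved away from both MEF and ESC. Between ESC and MEF 40.3% of genes were higher and 36.3% lower in ESC. The differences of iPS6F and of ESC from the shared MEF arrays passed the threshold in opposite directions in 215 genes, of which 14 were at least 2-fold higher and 17 at least 2-fold lower in iPS6F than in MEF. The elongation factor Eef2 read 9.33, 9.60 and 9.21 in MEF, 11.55, 10.95 and 11.20 in iPS6F and 9.02 on average in ESC. Hsd17b11, a lipid droplet dehydrogenase, and Emb, a membrane glycoprotein, exceeded MEF by 1.58 and 1.51 and ESC by 2.02 and 3.78. Cep19, a centrosomal protein, read 7.36, 7.36 and 7.32 in MEF, 5.40, 5.17 and 5.63 in iPS6F and 7.94 on average in ESC, and was also lower than in iPS4F, by 1.55 ± 0.12 (adjusted p = 2.29e-06). Mpi, a mannose phosphate isomerase, and Irak3, an inhibitor of innate signalling, were lower, with differences of -1.98 and -1.76 from MEF and of -2.78 and -2.10 from ESC. On the iPS4F arrays Eef2 read 11.03, 11.19 and 11.53, Hsd17b11 8.55, 8.48 and 8.70, and Emb 9.63, 9.26 and 9.38. Mpi read 5.41, 5.52 and 5.50 there and Irak3 4.46, 4.44 and 4.69, so these moves were not particular to iPS6F. For Casp9 the brightest probe fell by 2.31, but its other probes differed by 0.32 to 1.20 the other way, and the mean of its probes differed by only -0.07 (adjusted p = 0.546, within a range of 3.87e-12 to 0.546 over 21 alternatives).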

How the data were processed

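RNA was labelled by in vitro transcription and hybridised to Illumina mouse bead arrays, per the labels' protocols. The deposited intensity and detection p-value of each of 45281 probes were used; the medians of the intensity columns differ between arrays, so no scaling between them had been applied. A second deposited table holds the authors' log2 values, with a median of 1.16 on every array. Its values share 1 distribution across arrays and rise with the intensities, while its background step and centring are unknown, and it served as an alternative. BeadStudio 3.2, RMA and lumi are named in the submitters' processing notes with no role.

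The neqc method of limma 3.58.1 (R 4.3.3) was applied to the intensities (background from detection p-values, offset 16, quantile normalization, log2). The offset understates folds of dim genes. A probe was kept if some group had it detected on all 3 arrays (17563, of which 15294 had 1 symbol), and the brightest kept probe stood for a gene. Of all probes 34885 had 1 symbol in the platform annotation, 18 several and 10378 none here. Of 3648 genes with several kept probes 2993 were called, 243 of them with another probe called the opposite way. One model with 4 group means was fitted to all 12 arrays (lmFit, eBayes), with Benjamini-Hochberg adjustment per comparison and a threshold of 0.05. The fit was tested on simulated log2 values in which few genes changed, so background correction and normalization were not covered. Scanner slides are not given in the headers, so no block for them was fitted.

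"At least N-fold" compares the brighter group's mean with, per array, the higher of the probe's own value and the lowest signal of a detected probe. Genes were named by rule: the 12 highest and 12 lowest differences, the 6 factors, up to 4 members of largest difference per list, the 12 lost and 12 switched-on genes of highest level, genes shared or missing against ESC, and up to 4 each way opposite to ESC. The highest and lowest differences were taken among called genes in which no array of one group reached the other. Other names illustrate lists, or their choice from the values is stated. The members, the 32 lists (762 entries, 53 without a named probe and 138 below the filter) and the tests were chosen with earlier results of these data known. Alternatives changed the background, scaling, offset, detection filter, probe rule, arrays in the fit, replicate block and single arrays left out. Leaving out iPS4F and ESC arrays was added after the data were seen.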

Additional observations from a re-analysis of the deposited data

Results flagged for a closer look

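The difference between the changes from MEF in the 2 iPS lines, tested as iPS6F minus iPS4F, passed the threshold in the genes that follow. Acta2 (-1.38), Cep19 (-1.55), Igf2 (-1.13), Myl9 (-0.88), Cxcl12 (-0.89), Acta1 (-0.86), Bgn (-0.74), Grb10 (-0.64), Rab25 (-0.64), Lox (-0.59), Serpinf1 (-0.56), Dnmt3b (-0.49), Tdrd12 (-0.45) and Rhox9 (-0.87) were lower in iPS6F. Maats1 (1.48), Khdc3 (0.87), Emp1 (0.71), Lama1 (0.69), Fgf4 (0.56), Sparc (0.51) and Kit (0.47) were higher. Acta2, Cep19 and Maats1 kept the call under all 20 alternatives run, Igf2, Myl9, Cxcl12 and Emp1 lost it under 1, and Khdc3 lost it under 2. The calls of Lama1, Rhox9 and Fgf4 ended under 3, that of Acta1 under 4, those of Lox and Rab25 under 5 and that of Dnmt3b under 6. Those of Tdrd12, Sparc, Bgn, Serpinf1, Grb10 and Kit ended under 8, 9, 12, 13, 14 and 14. The iPS4F arrays were the brightest of the study, and the part of that in these differences was not tested.

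Of the 2269 kept probes without a single gene symbol, which entered no gene count, 251 were switched on in iPS6F by the detection rule and 170 were lost. Past the threshold 1089 of the 2269 were higher in iPS6F and 563 lower, against 7246 and 6097 of all 17563 kept probes.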

How the results depend on the processing

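Of 149 named genes called between iPS6F and MEF, 144 kept their direction and call under every alternative run. The calls of Usf2, Kdm4a, Nes, Smarca4 and Casp9 ended under 15, 15, 8, 6 and 1 of 21, and no value of a called gene changed sign. The share of called genes that were higher stayed between 46.8% and 50.9%. Genes at least 2-fold higher numbered 1961, against 1050 without background correction, 1302 with an offset of 50 and 2995 in the authors' log2 table, and those at least 2-fold lower 2170, against 1223 without background correction and 3155 in the authors' table. Both the offset and an uncorrected background compress folds of dim genes by construction, and the cause of the remaining shifts was not tested. Genes differing between iPS6F and iPS4F numbered 117, against 42 with median scaling, 47 in the authors' table and 44 to 193 when single arrays were left out, and those differing from ESC 4625, against 2101 with median scaling (cause not tested). Leaving out single arrays gave 7651 to 8007 genes differing from MEF, 779 to 926 lost and 706 to 771 switched on. Fewer arrays can only loosen the detection rule, so the lost and switched-on counts could not fall. With a detection p under 0.01, 1044 genes were lost and 711 switched on, so loss means below detection on these arrays and not absence. Array numbers run from 1 to 3 in every group. Same-numbered MEF and iPS6F arrays deviated together only weakly (correlations of 0.116, 0.00546 and 0.0826), which cannot tell whether they shared a batch. With the replicate block 7923 genes differed between iPS6F and MEF, 94 between the iPS lines and 4645 from ESC.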
